A study of Sus scrofa with 30 samples.

Results

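The 68 genes described here had lower transcript levels at the end than at the start of maturation in albumin, while their levels stayed within set limits when fetuin-A replaced the albumin or when the TGFBR inhibitor SB431542 was added. They are 68 of the 25880 genes in the count table, of which 13860 reached a mean of at least 1 CPM (count divided by the total of its library, times 1e6) in any condition. The genes were chosen by these CPM values alone. R is the log2 ratio of the mean CPM of 4 libraries, with 0.5 added to each mean. A gene was taken when R of HSA/d5 over HSA/d1 was at most -1 and each HSA/d5 library lay below each HSA/d1 library. In addition, the Fet-A/d5 mean had to be less than about 1.5-fold below and less than 2-fold above the HSA/d5 mean. The HSA + SB/d5 mean had to be within about 1.5-fold of the HSA/d5 mean, both on the scale of R. There were 218 genes with R of at most -1, of which 146 showed no overlap of the libraries and 68 also met both limits. Because these values chose the genes, differences of the 68 genes among these 4 conditions are given as a description, without a test.

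NICCs are clusters of islet cells cultured from the digested pancreas of piglets aged 2 to 12 days, and their poly-A RNA was sequenced in 24 libraries, 4 in each of 6 conditions. HSA/d1 denotes maturation d1 (culture day 6) and HSA/d5 denotes maturation d5 (culture day 10), both in medium with human serum albumin (HSA, 0.6 mg/ml). The other conditions were sampled at maturation d5 (culture day 10). Fet-A/d5 held fetuin-A (0.6 mg/ml) instead of HSA, and HSA + SB/d5 held HSA with SB431542 (10 μmol/l), which inhibits the kinase of TGFBR. HSA + LDN/d5 and HSA + SB + LDN/d5 held HSA with LDN, without or with SB431542. The labels name LDN only in this way, without saying what it is or how much was added. The experiment comprised 4 independent islet preparations, and the labels say neither which library came from which nor the age of the animals. For NICCs cultured with fetuin-A, 2 animals aged 4 days and 2 aged 12 days are mentioned. Ages of 4 and 12 days are also given where cultures with HSA and SB431542 are shown. Libraries were compared as unpaired, and p values measure the spread between these libraries. The replicate numbers follow the order of the samples in the series. Libraries with equal numbers deviated together, so a fit with the number as a replicate block is given beside some of the unpaired results.

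Total counts per library were between 20772839 and 22967442 in HSA/d1, 19095896 and 22274149 in HSA/d5, 19758438 and 22825355 in Fet-A/d5, and 19533939 and 24346119 in HSA + SB/d5. They were between 18883734 and 21194279 in HSA + LDN/d5 and between 19741452 and 21012848 in HSA + SB + LDN/d5. The HSA/d1 libraries differed among themselves. Replicate 1 held the highest HSA/d1 value for 33 of the 68 genes and replicate 2 for 25, against 6 for replicate 3 and 4 for replicate 4. Leaving out HSA/d1 replicate 1 gave 51 genes by the same criteria, 44 of them among the 68, and leaving out replicate 2 gave 56 genes, 51 of them among the 68. Without replicate 3 the number was 100, and without replicate 4 it was 101. Among the 38 genes with a mean of at least 10 CPM in HSA/d1, the median coefficient of variation was 21.1% in HSA/d1 and 14.9% in HSA/d5.

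Newborn islets mature by switching on genes of hormone processing and regulated secretion and by turning down genes of the immature state. Isolation and culture also load the cells with stress, and transcripts of early stress responses are usually high soon after a digest. HSA/d1 was sampled later than that, at culture day 6, and a part of such stress in these data was not tested. Ribosomal protein genes are expressed together and set the capacity for protein synthesis, while DDIT4 restrains the mTORC1 kinase, which promotes ribosome production.

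All 68 genes had their highest mean in HSA/d1. Together they took 1.86%, 1.596%, 1.24% and 1.15% of the counts in the 4 HSA/d1 libraries (mean 1.46% ± 0.326, SD, n = 4). Their share in HSA/d5 was 0.772%, 0.711%, 0.651% and 0.608% (0.685% ± 0.0715, SD, n = 4), so that every HSA/d5 library lay below every HSA/d1 library. In these bulk libraries, fewer cells of a type and less RNA per cell cannot be told apart. The mean CPM in HSA/d1 was at least 100 for 16 genes, between 10 and 100 for 22, and below 10 for 30. Most differences lay near the limit of the choice, with a median R of -1.14 and 17 genes at or below -1.5. Only 4 genes had R at or below -2, namely CBR1, PDIA2, BCL2L14 and a gene without a symbol (ENSSSCG00000040219). The heat map of all 68 genes shows these levels in each library.

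**Figure D1:**
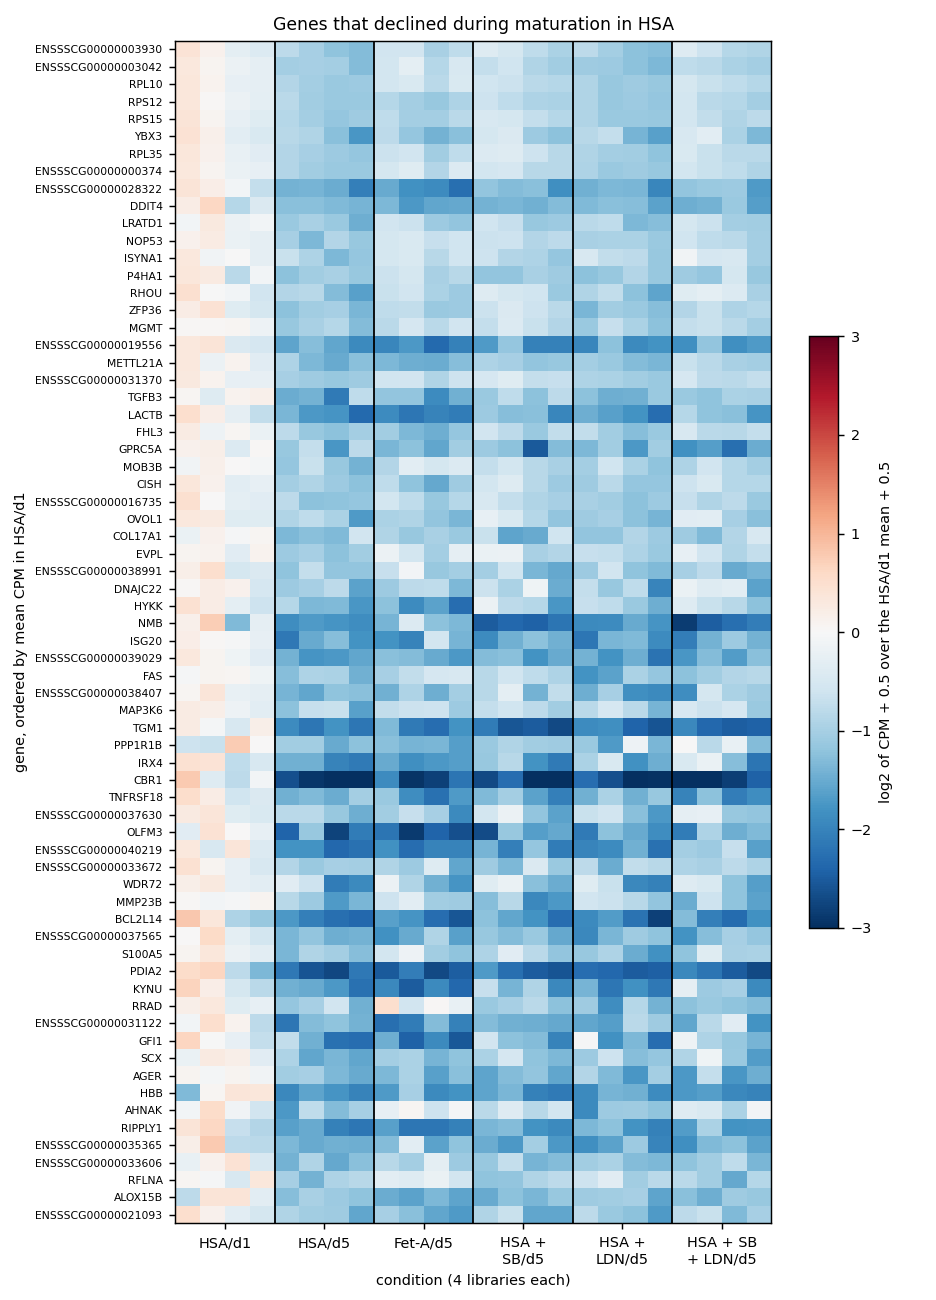
Heat map of the 68 declining genes (y axis, ordered by mean CPM in HSA/d1) in the 24 libraries (x axis, 4 per condition); colour is the log2 ratio of CPM + 0.5 to the HSA/d1 mean + 0.5, with the scale ending at -3 and 3. All 68 genes have their highest mean in HSA/d1, where replicates 1 and 2 hold the highest value for 33 and 25 genes.

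The 68 genes included 4 ribosomal proteins, all of them among the 10 with the highest mean in HSA/d1. RPL10, a protein of the large ribosomal subunit, was at 2112, 1790.5, 1413 and 1378 CPM in the HSA/d1 libraries and at 905, 821, 769 and 790.3 CPM in the HSA/d5 libraries. The HSA/d1 libraries with the highest RPL10 were replicates 1 and 2, and the closest libraries of both conditions were still far apart. This gave 1673 ± 347 CPM (SD, n = 4) in HSA/d1 and 821 ± 59.8 CPM (SD, n = 4) in HSA/d5, with R of -1.03. The other ribosomal proteins among the 68 were RPL35 of the large subunit and RPS12 and RPS15 of the small subunit, with R between -1.03 and -1.02. These 4 genes passed the limit by less than 0.04 on the log2 scale. Ribosomal proteins have many near-identical gene copies, and counts of single genes are uncertain where reads could be split between them.

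YBX3, a cold-shock domain protein that binds RNA and DNA, was at 1286, 1053, 764 and 694 CPM in HSA/d1 and at 534, 511, 397 and 282 CPM in HSA/d5. The levels in HSA/d5 were spread over a wider relative range than those of RPL10, without reaching the lowest HSA/d1 library. Mean YBX3 was 949 ± 273 CPM (SD, n = 4) and 431 ± 116 CPM (SD, n = 4), with R of -1.14. NOP53, a factor of ribosome biogenesis, had means of 241 CPM in HSA/d1 and 114 CPM in HSA/d5, and METTL21A, which methylates HSP70 chaperones, had means of 86.8 and 36.4 CPM.

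Whether the 4 ribosomal proteins differed from the rest of their family was examined with a list of 46 ribosomal protein genes, which was drawn up after the values had been seen and is therefore described without a test. The list took 5.49%, 4.75%, 3.997% and 3.81% of the counts in HSA/d1 and 2.80%, 2.5996%, 2.52% and 2.40% in HSA/d5. Each HSA/d5 library was thus below each HSA/d1 library for the sum of this list, which includes the 4 genes chosen for their decline. For 40 of the 46 genes all HSA/d5 libraries lay below all HSA/d1 libraries, against 10.9% of the 13860 genes with at least 1 CPM. In the list 4 genes had R at or below -1 and 36 had R between -1 and -0.5, and RPS21, RPL29 and RPS27A were at 0 in all libraries. The median log2 fold change of the 43 tested genes was -0.88, and it was between -0.98 and -0.72 under the alternative settings, scalings included. RPLP0 was the most abundant gene of the list, at 3084 CPM in HSA/d1 and 1822 CPM in HSA/d5. RPS13, which served as the reference transcript for qRT-PCR in the study and was picked here after its values had been seen, was at 585, 525, 424 and 402 CPM in HSA/d1. In HSA/d5 it was at 285, 269, 244 and 252 CPM, below all HSA/d1 libraries, with a log2 fold change of -0.97 that lay between -1.06 and -0.82 under the alternatives.

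**Figure D2:**
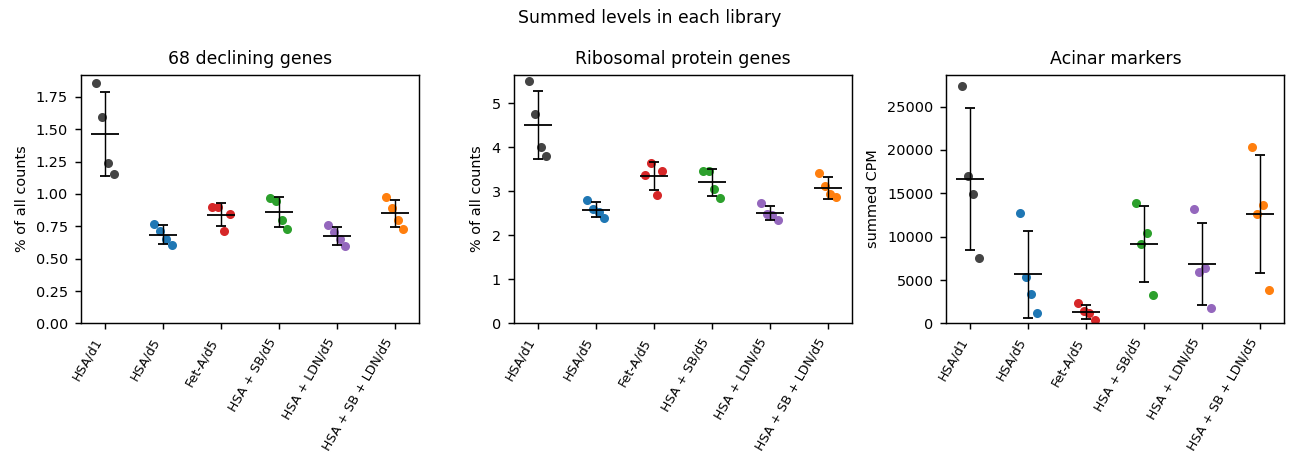
Share of all counts taken by the 68 declining genes (left, %), share taken by 46 ribosomal protein genes (middle, %) and summed CPM of the acinar markers (right) by condition; points are libraries, horizontal lines the mean and error bars the SD (n = 4). The share of the 68 genes is 1.46% in HSA/d1 and 0.685% in HSA/d5, with no overlap of libraries.

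DDIT4, P4HA1, ZFP36 and MGMT are described together by known functions in stress, low oxygen, RNA turnover or DNA repair. This grouping and those that follow were not tested. DDIT4, an inhibitor of mTORC1 that is induced by stress and hypoxia, was at 354, 471, 169 and 226 CPM in HSA/d1. Its level in HSA/d5 was 127, 128, 122 and 116 CPM. The HSA/d1 libraries were scattered, with replicates 1 and 2 highest and replicate 3 lowest, whereas the HSA/d5 libraries lay close together. The means were 305 ± 135 CPM (SD, n = 4) and 123 ± 5.43 CPM (SD, n = 4), with R of -1.30. P4HA1, the catalytic subunit of collagen prolyl hydroxylase, was likewise highest in replicates 1 and 2 and lowest in replicate 3 of HSA/d1, with 246 and 234 CPM in replicates 1 and 2, 111 CPM in replicate 3 and 184 CPM in replicate 4. In HSA/d5 P4HA1 was at 82.2, 94.1, 97.9 and 88.2 CPM, and the gap to HSA/d1 replicate 3 was small. ZFP36, which promotes the decay of mRNAs with AU-rich elements, had means of 144 ± 45.9 CPM (SD, n = 4) in HSA/d1 and 64.6 ± 7.75 CPM (SD, n = 4) in HSA/d5. MGMT, a DNA repair protein that removes alkyl groups from guanine, had means of 95.1 and 45.6 CPM, and its HSA/d1 libraries lay close together.

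Among genes of signalling, TGFB3 encodes a ligand of TGFBR. It was at 77.9, 56.2, 79.8 and 83.0 CPM in HSA/d1 and at 26.3, 27.7, 16.8 and 43.7 CPM in HSA/d5. Unlike the ribosomal proteins, TGFB3 was lowest in HSA/d1 replicate 2, and HSA/d5 replicate 4 came nearest to it. The means were 74.2 ± 12.2 CPM (SD, n = 4) and 28.6 ± 11.2 CPM (SD, n = 4), with R of -1.36. NMB, the bombesin-like peptide neuromedin B, was at 15.2, 23.0, 5.20 and 11.2 CPM in HSA/d1 and at 3.37, 3.88, 3.68 and 3.40 CPM in HSA/d5. The HSA/d1 values of NMB differed several-fold among libraries, and the lowest was close to the HSA/d5 values. NMB had R of -1.79, from means of 13.7 ± 7.46 CPM (SD, n = 4) and 3.58 ± 0.240 CPM (SD, n = 4). Other members of this group were RHOU, the cytokine signalling suppressor CISH, the death receptor FAS, the TNF receptor family member TNFRSF18, the kinase MAP3K6, the receptor for advanced glycation end products AGER, the orphan receptor GPRC5A, the LIM-domain protein FHL3, the Ras-related GTPase RRAD and MOB3B. Their R ranged from -1.31 for TNFRSF18 to -1.002 for RRAD, and their means in HSA/d1 from 2.12 CPM for AGER to 159 CPM for RHOU.

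TGM1, COL17A1, EVPL and OVOL1 are known from stratified epithelia, a grouping by known function that was not tested. TGM1, a transglutaminase that crosslinks proteins of the cornified envelope, was at 9.17, 7.27, 5.29 and 8.71 CPM in HSA/d1. In HSA/d5 TGM1 was at 1.68, 1.29, 1.84 and 1.31 CPM. The values within each condition were similar and the conditions were well separated, at 7.61 ± 1.75 CPM (SD, n = 4) and 1.53 ± 0.274 CPM (SD, n = 4), with R of -1.997. COL17A1, a transmembrane collagen of hemidesmosomes, was at 22.1 ± 2.28 CPM (SD, n = 4) in HSA/d1 and 10.1 ± 3.01 CPM (SD, n = 4) in HSA/d5. The envelope protein EVPL and the zinc finger factor OVOL1 had R of -1.08 and -1.04. Transcription factors and related regulators with low counts were IRX4, GFI1, SCX and RIPPLY1, with means in HSA/d1 between 1.74 and 5.96 CPM. IRX4, a homeobox factor, was at 8.39, 8.05, 3.29 and 4.09 CPM in HSA/d1 and at 1.87, 1.87, 1.12 and 0.995 CPM in HSA/d5, so that replicates 1 and 2 were again the highest in HSA/d1. R of IRX4 was -1.72.

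The largest decline was that of an enzyme. CBR1, a carbonyl reductase, was at 9.68, 4.01, 2.97 and 5.10 CPM in HSA/d1, which corresponded to 211, 92, 64 and 106 counts. In HSA/d5 it was at 0.455, 0.287, 0.0898 and 0.157 CPM, or 10, 6, 2 and 3 counts. HSA/d1 replicate 1 was the highest by far, and all HSA/d5 libraries had few counts. CBR1 had R of -2.99, from means of 5.44 ± 2.96 CPM (SD, n = 4) and 0.247 ± 0.161 CPM (SD, n = 4). LACTB, a mitochondrial beta-lactamase-like protein, was at 89.1, 72.0, 52.2 and 37.0 CPM in HSA/d1 and at 23.9, 18.7, 18.0 and 12.1 CPM in HSA/d5. The libraries with high LACTB in HSA/d1 were again replicates 1 and 2, and R was -1.76. PDIA2, a protein disulfide isomerase known from the pancreas, was at 104, 118, 34 and 19 counts in HSA/d1 and 7, 2, 1 and 6 counts in HSA/d5, with R of -2.38. Further enzymes were ISYNA1 of inositol synthesis (R of -1.002), KYNU of tryptophan breakdown (-1.70), the hydroxylysine kinase HYKK (-1.28) and the lipoxygenase ALOX15B (-1.14).

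**Figure D3:**
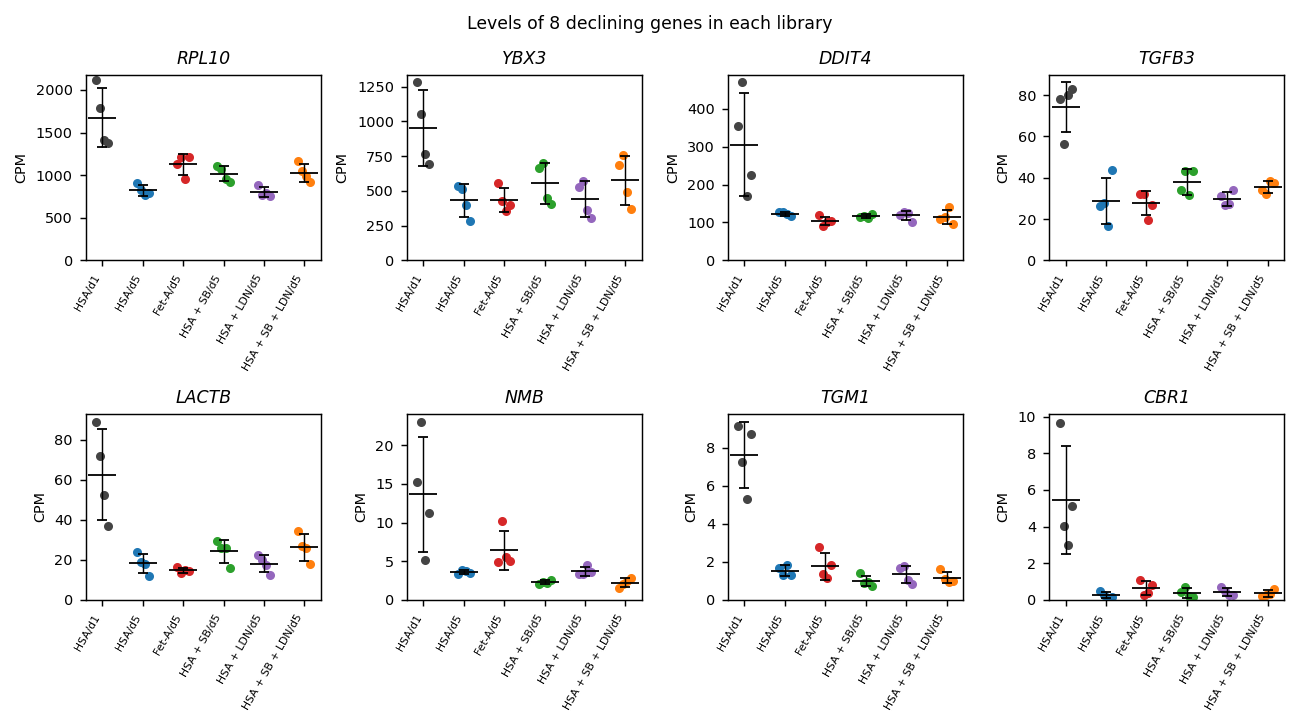
CPM of 8 declining genes (RPL10, YBX3, DDIT4, TGFB3, LACTB, NMB, TGM1 and CBR1) by condition; points are libraries, horizontal lines the mean and error bars the SD (n = 4). In all 8 panels every HSA/d5 library lies below every HSA/d1 library, for example 769 to 905 against 1378 to 2112 CPM for RPL10.

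ISG20, an RNA exonuclease induced by interferon, was at 13.3, 11.7, 11.2 and 9.63 CPM in HSA/d1 and at 2.19, 3.68, 4.44 and 2.93 CPM in HSA/d5. The HSA/d1 libraries were close together, and R was -1.65. HBB, the beta chain of haemoglobin, was at 0.550, 2.22, 2.88 and 2.84 CPM in HSA/d1 and at 0.182, 0.383, 0.269 and 0.157 CPM in HSA/d5. Here replicate 1 was the lowest of the HSA/d1 libraries, and R was -1.81 at 12, 51, 62 and 59 counts in HSA/d1. Of the remaining genes with a symbol, LRATD1 was the most abundant, at 264 CPM in HSA/d1 and 119 CPM in HSA/d5. The others were the phosphatase inhibitor PPP1R1B, the calcium-binding protein S100A5, the scaffold protein AHNAK, the metalloproteinase MMP23B, the J-domain protein DNAJC22, BCL2L14, OLFM3, WDR72 and RFLNA. Their R lay between -2.07 for BCL2L14 and -1.03 for RFLNA, and their means in HSA/d1 between 1.222 and 15.3 CPM.

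A symbol was known for 50 of the 68 genes, and the other 18 are given by their Ensembl identifiers. The gene with the highest CPM of all 68, ENSSSCG00000003930, was at 3697, 3039, 2245 and 2061 CPM in HSA/d1 and at 1612, 1375, 1194 and 1124 CPM in HSA/d5. ENSSSCG00000003042 and ENSSSCG00000000374 had means of 1764 ± 330.3 and 748 ± 139 CPM (SD, n = 4) in HSA/d1 and of 832 ± 79.9 and 365 ± 27.7 CPM (SD, n = 4) in HSA/d5. In all of them replicate 1 was highest in HSA/d1 and replicate 4 lowest. ENSSSCG00000028322 was at 767, 682, 554 and 361 CPM in HSA/d1 and at 221, 224, 209 and 142 CPM in HSA/d5, with R of -1.57. ENSSSCG00000019556 had R of -1.57 and ENSSSCG00000039029 had R of -1.61. R of the 18 genes ranged from -2.02 to -1.003, and the remaining 12 had means in HSA/d1 between 1.12 and 86.0 CPM.

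Genes just inside and just outside most limits differed little in the value compared. The gap was wider at the lower limit for fetuin-A. ISYNA1 (222.9 CPM in HSA/d1 and 111 CPM in HSA/d5) had R of -1.002 and was taken, whereas IL17D (17.2 and 8.37 CPM) had R of -0.997 and was not. At the limits for fetuin-A, OLFM3 was inside with R of -0.54 and GPR63 outside with -0.81, and RRAD was inside with 0.997 and CDKN1C outside with 1.03. GPR63 was outside this limit only, whereas ARC, nearer to it with -0.598, was also outside the limit for SB431542. For SB431542, ENSSSCG00000038407 was inside with R of 0.58 and CHRNA5 outside with 0.62, and NMB was inside with -0.57 and DPT outside with -0.60. The highest mean was 1.12 CPM for ENSSSCG00000021093, which was taken, and 0.934 CPM for DLK2, which was not. A total of 67 of the 68 genes passed edgeR's filter on low counts, and ALOX15B did not.

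The libraries at maturation d5 with LDN had entered the choice only through the floor of 1 CPM. In them the 68 genes took 0.761%, 0.704%, 0.648% and 0.599% of the counts, close to HSA/d5 without LDN. All 4 HSA + LDN/d5 libraries lay below all 4 HSA/d1 libraries for 64 of the 68 genes, against 12.2% of the 13860 genes with at least 1 CPM. The HSA/d1 libraries had helped to choose the genes, so this count is a description. The exceptions were PPP1R1B, IRX4, GFI1 and RFLNA. For IRX4 the HSA + LDN/d5 libraries were at 2.85, 4.23, 1.32 and 1.85 CPM, and replicate 2 exceeded the lower pair of HSA/d1 libraries. R of HSA + LDN/d5 over HSA/d1 had a median of -1.15 and ranged from -2.69 to -0.68, with 56 genes at or below -1. The median log2 fold change of HSA + LDN/d5 vs HSA/d5 was 0.01, which is a description for the same reason.

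With fetuin-A in place of albumin, the mean of 43 of the 68 genes was above HSA/d5, and the median R was 0.14. By edgeR's log2 fold change, 46 of the 67 tested were above 0, against 7495 of all 14842 genes tested. The genes were chosen for low HSA/d5 values, and the limits for fetuin-A reached further up than down. Both favour such counts. The share of counts of the 68 genes was 0.899%, 0.903%, 0.712% and 0.842% in Fet-A/d5, below all HSA/d1 libraries. For 55 of the 68 genes the Fet-A/d5 libraries did not overlap with HSA/d1 and were lower, against 17.7% of the 13860 genes. RRAD was the gene nearest to its HSA/d1 level, at 4.42, 1.84, 3.05 and 2.48 CPM in Fet-A/d5 and 3.44, 3.83, 2.18 and 2.41 CPM in HSA/d1. NMB was at 4.91, 10.2, 5.51 and 5.06 CPM in Fet-A/d5, with replicate 2 standing above the rest. RPL10 was at 1134, 1209, 955 and 1215 CPM, between HSA/d5 and HSA/d1, whereas DDIT4 was at 119, 92.0, 102 and 105 CPM, mostly below HSA/d5. The lowest R with fetuin-A were those of OLFM3 (-0.54), GFI1 (-0.49) and KYNU (-0.46).

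With SB431542 alone, 55 of the 68 means were above HSA/d5, with a median R of 0.27. By edgeR's log2 fold change, 55 of the 67 tested were above 0, against 7571 of all 14842 genes tested. The choice of genes with low HSA/d5 values favours these counts too. The share of the 68 genes was 0.967%, 0.946%, 0.796% and 0.731% in HSA + SB/d5. For 54 of the 68 genes the HSA + SB/d5 libraries were all below the HSA/d1 libraries, against 10.3% of the 13860 genes. NMB was at 2.01, 2.25, 2.13 and 2.61 CPM in HSA + SB/d5, under every HSA/d5 library. LACTB was at 29.2, 25.6, 26.1 and 15.8 CPM, overlapping with HSA/d5, and ZFP36 was at 92.3, 107, 92.8 and 81.6 CPM, above every HSA/d5 library. These values entered the choice and had to lie within its limits.

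SB431542 was also given together with LDN, and the conditions with LDN had entered the choice only through the floor of 1 CPM, which all 68 genes met in HSA/d1. The comparison HSA + SB + LDN/d5 vs HSA + LDN/d5 was tested in these libraries. However, the genes had been chosen for a small difference with SB431542 in the absence of LDN. Of all 14842 genes tested, edgeR called 0 in HSA + LDN/d5 vs HSA/d5. It also called 0 for a different effect of SB431542 with LDN than without. A small difference was thus favoured by the choice, and the number of genes called is not an independent result. The 68 genes took 0.975%, 0.892%, 0.800% and 0.731% of the counts with SB431542 and LDN (0.849% ± 0.106, SD, n = 4), and 0.678% ± 0.0698 (SD, n = 4) with LDN alone. HSA + SB + LDN/d5 replicate 4 lay within the range of the LDN libraries and the others above it. With edgeR's quasi-likelihood test and Benjamini-Hochberg adjustment, 0 of the 67 genes passed the thresholds, against 0.243% of all genes tested that were higher and 0.586% that were lower, and 0 had an adjusted p below 0.05 at any fold change, against 1.74%. At an unadjusted p under 0.05, 16 genes were higher with SB431542 and 1 was lower. Of all genes tested, 7.03% were higher and 6.65% lower at that p. The 16 genes became 6 without HSA + SB + LDN/d5 replicate 1 and 6 without HSA + LDN/d5 replicate 4, in fits that tested all 68 genes. They became 29 with the replicate block, with which 13.6% of all genes tested were higher at that p. DESeq2 called 1 of the 67 genes, AHNAK, against 1.3% of all genes tested, and gave 19 at an unadjusted p under 0.05, against 14.2%. The median log2 fold change was 0.29 over the 67 genes and 0.00 over all genes tested. It was positive for 56 of the 67, against 7487 of all 14842 genes tested.

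With the replicate number as a block, edgeR's quasi-likelihood test called 3 of the 67 genes higher with SB431542 and LDN than with LDN, against 1.23% of all genes tested. They were AHNAK, KYNU and ENSSSCG00000040219. At an adjusted p below 0.05 without a fold threshold, 21 of the 67 were higher, against 6.86%, and GPRC5A was lower, against 6.8%. Within libraries of equal number, HSA + SB + LDN/d5 exceeded HSA + LDN/d5 in all 4 pairs for 34 of the 68 genes, against 19.9% of the 13860 genes. The share of counts of the 68 genes was also higher with SB431542 in each of the 4 pairs. Of 16 acinar markers tested, 9 were called higher with the block in this comparison and 5 were higher at an unadjusted p under 0.05 without it. Of 17 mesenchymal markers 14 were below a log2 fold change of 0 in the unpaired fit (median -0.65), as were 25 of 27 endocrine markers (median -0.38). Of all 14842 genes tested, 7355 were below 0 in that fit. The mesenchymal markers called lower were 2, against 0.586% of all genes tested, which became 1 without any 1 library of the comparison other than HSA + LDN/d5 replicate 3. With the block 3 were called lower, against 1.37% of all genes tested. The part of these lists in the result was not tested. The pairing rests on the values and on the order of the samples, not on a statement in the labels. The median log2 fold change of the 67 genes was 0.28 with the block.

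AHNAK, a very large scaffold protein, was at 0.0964, 0.553, 0.566 and 0.477 CPM in HSA + LDN/d5, which were 2, 11, 12 and 9 counts. In HSA + SB + LDN/d5 it was at 1.219, 1.14, 0.668 and 1.62 CPM, or 25, 24, 14 and 32 counts. The conditions did not overlap, although the counts were low. AHNAK was singled out after its values had been seen, as the gene with the lowest p, and its log2 fold change was 1.46 (SE 0.446) with an edgeR adjusted p of 0.114. DESeq2 gave 1.47 (SE 0.454) with an adjusted p of 0.0397, and edgeR gave an adjusted p of 0.0140 with the replicate block. RPL10 was at 889.6, 764, 793 and 762 CPM in HSA + LDN/d5 and at 1161, 1045, 987 and 917 CPM in HSA + SB + LDN/d5, again without overlap, with a log2 fold change of 0.37 (SE 0.136) and an edgeR adjusted p of 0.198, or 0.0131 with the replicate block. DDIT4 was at 121, 128, 125 and 100.4 CPM and at 109.7, 114, 141 and 96.6 CPM, which overlapped fully, with a log2 fold change of -0.03 (SE 0.210) and an edgeR adjusted p of 0.977. NMB was at 3.28, 3.32, 4.44 and 3.65 CPM with LDN and at 1.46, 2.05, 2.43 and 2.84 CPM with SB431542 and LDN. All 4 libraries with SB431542 were below those without, with a log2 fold change of -0.73 (SE 0.335) and an edgeR adjusted p of 0.336.

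LACTB was at 22.4, 19.97, 17.6 and 12.4 CPM in HSA + LDN/d5 and at 34.5, 26.7, 25.8 and 18.1 CPM in HSA + SB + LDN/d5, where replicate 4 overlapped with the LDN libraries. Its log2 fold change was 0.56 (SE 0.274) with an edgeR adjusted p of 0.383, or 0.00726 with the replicate block. TGFB3 was at 31.3, 26.6, 27.1 and 33.9 CPM and at 34.1, 32.1, 38.3 and 37.3 CPM in these conditions. Only replicate 2 with SB431542 reached into the range without it, and the log2 fold change was 0.27 (SE 0.208, edgeR adjusted p of 0.631). KYNU was at 0.868, 0.302, 0.519 and 0.318 CPM and at 2.49, 1.19, 1.29 and 0.456 CPM, which overlapped, with a log2 fold change of 1.44 (SE 0.556) and an edgeR adjusted p of 0.227, or 0.00359 with the block. ENSSSCG00000040219 had a log2 fold change of 1.12 (SE 0.367) and an edgeR adjusted p of 0.142, or 0.00745 with the block. For the remaining genes named for a high level, a large decline or a place on a list, the log2 fold change lay between -0.48 for HBB and 0.41 for ENSSSCG00000003930. Of these, ENSSSCG00000003930, ENSSSCG00000003042, ENSSSCG00000000374, RPS12, RPS15, RPL35 and YBX3 had an edgeR adjusted p below 0.05 with the block only. Over all 68 genes, the HSA + SB + LDN/d5 libraries lay above the HSA + LDN/d5 libraries without overlap for 9 genes, against 4.49% of the 13860 genes, and below for NMB, against 5.8%. The 9 genes were RPL10, RPL35, RPS15, ZFP36, METTL21A, AHNAK and 3 without a symbol. For 51 of the 68 genes all HSA + SB + LDN/d5 libraries were still below all HSA/d1 libraries, against 11.1% of the 13860 genes. This count is a description too, because the HSA/d1 libraries had helped to choose the genes.

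**Figure D4:**
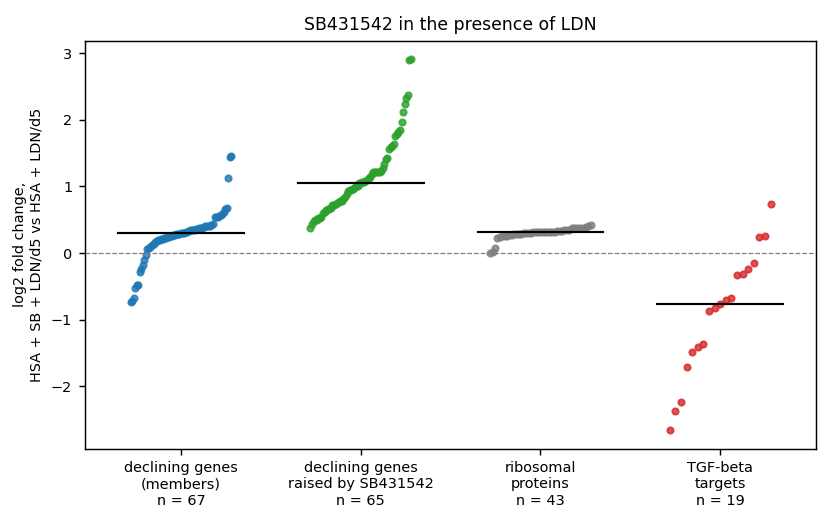
Log2 fold change (y axis) of HSA + SB + LDN/d5 vs HSA + LDN/d5 for the 67 declining genes tested, the 65 declining genes above the limit for SB431542, 43 ribosomal protein genes and 19 TGF-beta targets; each point is a gene, sorted within its list, and horizontal lines are medians. The medians of the first and second list are 0.29 and 1.06. These lists had been separated by the limit for SB431542, so this difference is a description.

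The ribosomal protein list, described without a test, had a median log2 fold change of 0.31 in the same comparison, and 33 of its 46 genes had no overlap, with HSA + SB + LDN/d5 higher, against 4.49% of the 13860 genes. Of the declining genes left out, 65 were higher in HSA + SB/d5 than in HSA/d5 by about 1.5-fold or more, and 44 of them were outside this limit only. These 65 genes had been set apart by higher values with SB431542, so their counts here are a description. Their median log2 fold change in HSA + SB + LDN/d5 vs HSA + LDN/d5 was 1.06. With edgeR's quasi-likelihood test 7 of the 65 were called higher, against 0.243% of all genes tested. That number was 1 without HSA + SB + LDN/d5 replicate 1, 3 without its replicate 2, 3 without HSA + LDN/d5 replicate 3 and 1 without HSA + LDN/d5 replicate 4. With the replicate block it was 37, against 1.23% of all genes tested. The limit for SB431542 had separated these 65 genes from the 67, so their difference is a description and was not tested. Among 19 tested TGF-beta targets, 6 were lower with SB431542 and LDN than with LDN, against 0.586% of all genes tested. With the replicate block 7 were lower, against 1.37%. INHBA was at 43.6, 45.0, 43.8 and 55.3 CPM with LDN and at 7.02, 5.38, 6.78 and 10.4 CPM with SB431542 and LDN, far apart. Its log2 fold change was -2.66 (SE 0.228) with an edgeR adjusted p of 8.3e-07. Other lower targets were SMAD7 (-2.38), PMEPA1 (-2.23), SKIL (-1.48) and SNAI1 (-1.41).

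Lists of marker genes for other cells of the pancreas were examined in HSA/d5 vs HSA/d1 with edgeR's quasi-likelihood test, because the contents of a digest can shift in culture. Of 34 acinar markers 20 were in the table and 16 were tested, of which 6 were lower, against 2.22% of the 14842 genes tested, and PRSS2 was higher, against 6.7%. The 6 became 3 without HSA/d1 replicate 1, HSA/d5 replicate 3 or HSA/d5 replicate 4. With the replicate block they became 11, against 2.78% of all genes tested. Summed over the list, acinar markers were at 27342, 17000.3, 14951 and 7521 CPM in HSA/d1 and at 12738, 5349, 3417 and 1200.5 CPM in HSA/d5. Both conditions were scattered and overlapped, and within each replicate number the sum was lower in HSA/d5. The sums were 2352, 1409, 1248 and 413 CPM in Fet-A/d5, 13884, 9141, 10379 and 3292 CPM in HSA + SB/d5, 13237, 5885, 6451 and 1802 CPM in HSA + LDN/d5, and 20357, 12605, 13635 and 3883 CPM in HSA + SB + LDN/d5. CPA1, the most abundant, was at 8733 ± 4590 CPM (SD, n = 4) in HSA/d1 and 2771 ± 2451 CPM (SD, n = 4) in HSA/d5, and CTRL and PRSS8 were at 0 in all libraries. None of the 68 genes was on this list, which does not hold every gene known from the pancreas, PDIA2 for example. The acinar genes CLPS, PLA2G1B, PNLIPRP1 and PNLIPRP2 also declined without overlap, with R between -5.82 and -2.19. They were left out of the 68 because they lay above the limit for SB431542. The part of acinar cells in the decline was not tested.

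Endocrine markers moved the other way, with 20 of 27 tested genes higher in HSA/d5, and their sum was 5538, 5215, 7999 and 9810.0 CPM in HSA/d1 and 39168, 26685, 34125 and 48326 CPM in HSA/d5. The most abundant was GCG, encoding glucagon, at 3564 CPM in HSA/d1 and 19745 CPM in HSA/d5, and no endocrine marker was at 0 in all libraries. None of the 68 genes was on the endocrine list, and the part of the larger endocrine share in the decline was not tested. Of 15 duct markers, CA2 and TFF2 were lower, and of 17 mesenchymal markers TIMP1 was lower, a count of 1 that became 3 with the replicate block. Of 19 leucocyte markers 6 were higher, and of 7 markers of nerve and glia 2 were higher. That last number was 1 without HSA/d1 replicate 1, HSA/d1 replicate 2 or HSA/d5 replicate 4, and 4 without HSA/d1 replicate 4 or with the replicate block. Among 14 genes of the immature or disallowed list, MYCN, PAX4 and FEV were higher at means below 2 CPM, and LDHA was lower, a call lost without HSA/d1 replicate 1, while 2 genes were lower with the replicate block. Of 10 endothelial markers edgeR called 0, with 0 at an unadjusted p under 0.05 and 0 called by DESeq2. The erythroid list had 2 tested genes, one of them HBB, whose decline was part of the choice. The sum of this list was 0.734, 2.48, 3.06 and 2.94 CPM in HSA/d1 and 0.410, 0.526, 0.404 and 0.262 CPM in HSA/d5, and the part of red cells in the level of HBB was not tested.

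Pathway lists that share functions with the 68 genes were tested in HSA/d5 vs HSA/d1 in the same way. Of all genes tested, 2.22% were called lower and 6.7% higher in that comparison. Of 13 genes of hypoxia and glycolysis, LDHA, ADM and EGLN3 passed both thresholds as lower, and 9 were lower at an adjusted p below 0.05, against 18.7% of all genes tested. The 3 became 1 without HSA/d1 replicate 1, and 5 without HSA/d1 replicate 3 or 4. ADM, a hypoxia-induced peptide, was at 42.8, 66.1, 8.58 and 18.0 CPM in HSA/d1, which put replicates 1 and 2 on top and replicate 3 at the bottom, as for DDIT4 and P4HA1. In HSA/d5 ADM was at 10.4, 7.89, 10.0 and 8.12 CPM and overlapped with HSA/d1 replicate 3. The summed level of this list was 4636, 4281, 2538 and 3570.2 CPM in HSA/d1 and 2473, 2396, 2799 and 2379.6 CPM in HSA/d5, and ENO1 was the most abundant. Of 19 immediate early and heat shock genes EGR1 was lower, and 13 were lower at an adjusted p below 0.05. EGR1 lost the call without HSA/d1 replicate 1 or 2, and 2 genes were called without HSA/d5 replicate 2. In the list of 16 genes of the unfolded protein and amino acid response, 1 gene, SLC7A11, was higher, against 6.7% of all genes tested. The decline of DDIT4, also on this list, was part of the choice.

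Of 18 genes of the interferon list, GBP1 was lower apart from ISG20, whose decline was part of the choice. GBP1 lost the call without HSA/d1 replicate 2 or 3 and without HSA/d5 replicate 1 or 2, and 4 genes were lower with the replicate block, ISG20 included. Of 15 inflammatory mediators 4 were higher, a number that became 0 without HSA/d5 replicate 3. Of 23 proliferation genes 6 were higher, which became 3 without HSA/d1 replicate 1 or HSA/d5 replicate 1. At an adjusted p below 0.05 at any fold change 19 were higher, against 18.9% of all genes tested, and 1 was lower, against 18.7%. Of 19 TGF-beta targets, SNAI2 and BHLHE40 were lower and CDKN2B was higher. The lower targets became 1 without HSA/d1 replicate 2 and 3 with the replicate block, and the higher ones 0 without HSA/d1 replicate 1 and 2 without HSA/d1 replicate 4 or HSA/d5 replicate 2 or with the replicate block. Of 14 genes of matrix proteases and their inhibitors 4 were higher and TIMP1 was lower. The 4 became 2 without HSA/d1 replicate 1 or 2 or HSA/d5 replicate 1 or 4, and 1 without HSA/d5 replicate 3. Of 8 genes of the oxidative and metal response MT3 was lower, a call lost without HSA/d1 replicate 1 or 2 and without HSA/d5 replicate 2, 3 or 4. Of 18 genes of sterol synthesis edgeR called 0, with 4 at an unadjusted p under 0.05, and DESeq2 called 0. Only HBB, DDIT4 and ISG20 of the 68 genes were on any list other than that of the ribosomal proteins.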

How the data were processed

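The values were raw read counts of 25880 genes in 24 libraries, as deposited by the authors. Per the submitters' processing notes, FastQC 0.11.8, Trim Galore 0.5, STAR 2.6.1, Picard, featureCounts 1.6.2 and DESeq2 1.22.1 were used upstream. Their roles and order, the genome build and the annotation are not given in the sources used here, nor is it given whether counting used the strand. Of the 30 runs listed, 6 libraries had 2 each but a single column in the count table. A symbol was matched to 14857 genes. CPM was the count over the column total times 1e6. The members and lists were chosen with earlier results of these data known, and the ribosomal list and some alternatives were added after the data had been seen. edgeR 4.0.16 (R 4.3.3) was used with TMM scaling, filterByExpr, all 24 libraries in 1 unpaired model and the quasi-likelihood test. Replicate numbers were taken from the order of the samples in the series. In log2 CPM less the group mean, libraries of equal number in different groups correlated with r between 0.250 and 0.837, and 59 of 60 correlated best with their own number. A fit with the number as a replicate block was therefore added, after the unpaired results were known. A call needed an absolute log2 fold change above 1 and a Benjamini-Hochberg adjusted p below 0.05 over 14842 genes. The method was tested on simulated data. DESeq2 1.42.0, other scalings, other filters and leaving out each library were the alternatives. Members named one by one were the 10 with the highest HSA/d1 mean, the 10 with the lowest R among those with an HSA/d1 mean of at least 5 CPM, those on a list other than the ribosomal one, and those called in HSA + SB + LDN/d5 vs HSA + LDN/d5; others named with values were picked after these had been seen. Lists covered acinar, duct, endocrine, immature, mesenchymal, endothelial, leucocyte, nerve and glia, and erythroid genes, proliferation, immediate early and heat shock, unfolded protein response, hypoxia, interferon, inflammatory mediators, TGF-beta targets, sterol synthesis, oxidative response, matrix proteases and ribosomal proteins. Values of 1 gene on these lists are not reported here. Tables and figures were made with Python 3.11.15, pandas 2.3.3, numpy 2.4.6 and matplotlib 3.10.9.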

Additional observations from a re-analysis of the deposited data

Results flagged for a closer look

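In 3 of the 144 sets of 4 libraries examined, 1 library lay far from the other 3 by Dixon's criterion, which chance alone meets in about 1 of 20 sets. ENSSSCG00000003042 was at 713 CPM in HSA/d5 replicate 4, against 865, 868 and 883 CPM in the others. RPS15 was at 633 CPM in one HSA + LDN/d5 library, against 537, 548 and 553 CPM. NMB was at 10.2 CPM in Fet-A/d5 replicate 2, against 4.91, 5.06 and 5.51 CPM. The causes were not tested.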

How the results depend on the processing

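The number of genes chosen was 44 with a floor of 5 CPM, 17 with R of at most -1.5, 146 without the limits for fetuin-A and SB431542, and between 51 and 101 when each library was left out. It was 88 with TMM library sizes, 90 with DESeq2's size factors, 78 with 0.1 and 60 with 1 added to each mean, and 86 with overlap allowed.

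In HSA + SB + LDN/d5 vs HSA + LDN/d5, DESeq2's Wald test called 1 of the 67 genes and gave 1 at an adjusted p below 0.05. The declining genes above the limit for SB431542 called higher were 14 with DESeq2, 4 with only the 2 groups in the fit and between 1 and 9 when each library was left out. Mesenchymal markers called lower were between 1 and 2 when each library was left out. When each library was left out, all 68 genes were tested, and between 6 and 22 were higher at an unadjusted p under 0.05. DDIT4 changed sign, between -0.14 and 0.0590, as did CBR1 (-0.68 to 0.12), IRX4 (-0.0455 to 0.65) and ENSSSCG00000019556 (-0.0901 to 0.29), and the cause was not tested.

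In HSA/d5 vs HSA/d1, with at least 10 counts in every library, calls were 1 lower for duct, 0 higher for immature, 0 lower for erythroid, 2 higher for inflammatory and 0 higher for TGF-beta targets. With only the 2 groups in the fit they were 1 higher for duct, 1 higher for nerve and glia, 1 higher for inflammatory, 0 higher for TGF-beta targets and 0 lower for the oxidative list. Without a filter they were 1 lower for inflammatory and 0 lower for the oxidative list. DESeq2 called 2 TGF-beta targets higher. When each library was left out, calls ranged over 3 to 8 lower for acinar, 0 to 1 lower for immature, 1 to 4 higher for nerve and glia, 3 to 9 higher for proliferation, 0 to 2 lower for immediate early, 1 to 5 lower for hypoxia and 1 to 3 lower for interferon. They ranged over 0 to 4 higher for inflammatory, 1 to 3 lower and 0 to 2 higher for TGF-beta targets, 0 to 1 lower for the oxidative list and 1 to 4 higher for matrix proteases. The cause was not tested. Of 728 values of single genes under alternatives, 692 kept their direction and their side of an adjusted p of 0.05, whatever the fold, 13 became weaker, 18 stronger and 5 reversed.

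With the replicate block, 3 of the 67 genes were called in HSA + SB + LDN/d5 vs HSA + LDN/d5, 22 had an adjusted p below 0.05 and 29 were higher at an unadjusted p under 0.05, and 37 of the declining genes above the limit for SB431542 were called higher. Of all genes tested, 1.23% were called higher with the block in that comparison. In HSA/d5 vs HSA/d1 the block gave 11 lower for acinar, 2 lower for immature, 3 lower for mesenchyme, 4 higher for nerve and glia, 4 lower for interferon and 2 higher for TGF-beta targets. Over all genes tested it called 2.78% lower and 7.8% higher there. The labels do not state the pairing.

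With 4 libraries per condition and 30 of the 68 genes below 10 CPM, small differences could be missed. Bulk libraries do not separate cell numbers from RNA per cell. Ribosomal protein counts may be split among gene copies. What LDN is and how much was added are unknown.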
